A study of Mus musculus with 40 samples.

Results

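The core loop of the circadian clock was followed through 40 RNA-seq libraries of mouse uterus as 9 genes: Arntl, Clock, Npas2, Per1, Per2, Per3, Cry1, Cry2 and Ciart. They were taken by gene name from a table of 54532 genes, each name matched 1 gene, and 9 of the 9 passed the filter on low values that left 16226 genes for testing.

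The loop is a transcription circuit that runs in most cells of the body, the uterus among them. ARNTL (also called BMAL1) pairs with CLOCK or its close relative NPAS2, and the pair binds E-box sequences and switches on the Per and Cry genes. PER and CRY proteins then enter the nucleus and shut the pair off, as does CIART (also called CHRONO), so that activators and repressors peak at different times of day. A second loop, in which the REV-ERB repressors (Nr1d1, Nr1d2) and ROR activators act on Arntl, and a set of D-box factors (Dbp, Tef, Hlf, and the repressor Nfil3) carry the rhythm to other genes. Per1 and Per2 are also known to be raised directly by glucocorticoids and by cAMP signalling.

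The uteri came from prepubertal mice treated from postnatal day 25. Control mice received PBS/saline. The doxorubicin mice received 2 weekly doses of 3 mg/kg doxorubicin, an anthracycline that traps topoisomerase II and breaks DNA. The third treatment was doxorubicin with AMH (anti-Müllerian hormone, a TGF-beta family hormone), and the fourth was AMH alone, at 0.75 mg/kg. Tissue was taken 4 h or 24 h after treatment, giving 8 groups of 5 libraries. Strain and genotype are not given in the labels, and no transgene or deletion is named in any group. Libraries carry biological replicate numbers, but no label says that each is 1 mouse, so p-values cover the spread between these libraries. They give no clock hour of injection or harvest. Hours since treatment and time of day therefore cannot be told apart when 24 h is set against 4 h. Treatments are compared within 1 time point, but no label says that its groups were harvested at the same hour. A difference in harvest hour between treatments therefore cannot be told apart from a treatment difference. In bulk tissue, fewer cells of a type and less RNA per cell cannot be told apart.

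Because the members moved together in groups, the sequences before their transcription starts were read from the RefSeq promoter table (build GRCm38.p6, the mm10 assembly). Of the 9 genes 8 had an entry, with 12 start sites in all; Per2 had none. Both strands of the 250 bases before each start were searched for the E-box CACGTG, bound by the ARNTL pairs, its variant CACGTT, the D-box TTATGTAA and its form TTACGTAA, the nuclear receptor elements GGGTCA and AGGTCA, and the cAMP response element TGACGTCA. No 2 matches in the members' windows shared bases. The 5 windows below, bases 250 to 31 before the start in the direction of transcription, are shown because they hold an E-box, its variant or a D-box; capitals mark each match to a searched motif, on either strand.
Ciart, chr3:95882259-95882478, minus strand: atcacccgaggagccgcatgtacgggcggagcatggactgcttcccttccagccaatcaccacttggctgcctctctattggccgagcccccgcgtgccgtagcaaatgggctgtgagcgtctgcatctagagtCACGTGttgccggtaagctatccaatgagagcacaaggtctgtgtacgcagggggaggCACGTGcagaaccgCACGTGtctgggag
Per1, chr11:69098699-69098918, plus strand: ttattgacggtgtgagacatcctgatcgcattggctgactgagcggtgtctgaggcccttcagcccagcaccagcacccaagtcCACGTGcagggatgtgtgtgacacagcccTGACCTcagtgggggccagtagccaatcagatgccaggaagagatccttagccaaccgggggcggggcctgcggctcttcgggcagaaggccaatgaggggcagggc
Cry1, chr10:85185085-85185304, minus strand: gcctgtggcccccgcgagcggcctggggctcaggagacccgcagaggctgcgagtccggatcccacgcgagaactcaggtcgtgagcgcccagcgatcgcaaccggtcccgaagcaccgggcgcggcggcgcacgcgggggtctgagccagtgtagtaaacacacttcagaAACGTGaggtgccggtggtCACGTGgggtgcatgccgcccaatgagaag
Cry2, chr2:92434100-92434319, minus strand: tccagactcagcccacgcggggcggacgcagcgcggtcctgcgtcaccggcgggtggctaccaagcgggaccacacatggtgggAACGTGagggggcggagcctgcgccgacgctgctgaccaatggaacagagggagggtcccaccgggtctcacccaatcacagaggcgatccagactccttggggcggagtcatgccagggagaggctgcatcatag
Per3, chr4:151044696-151044915, minus strand: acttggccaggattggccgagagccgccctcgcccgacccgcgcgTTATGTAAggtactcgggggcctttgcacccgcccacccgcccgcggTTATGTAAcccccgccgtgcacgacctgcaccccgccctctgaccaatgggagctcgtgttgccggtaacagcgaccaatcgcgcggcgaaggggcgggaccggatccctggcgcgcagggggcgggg

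The E-box CACGTG was in the windows of 3 repressor genes, Per1, Cry1 and Ciart, and in 6.02% of 32851 promoter windows of the same length. Ciart held 3 copies, which began 116, 58 and 44 bases before the start. In Per1 the single copy began 166 bases before the start, and in Cry1 60 bases before it. CACGTT was in Cry1 and Cry2 (3.85% of all windows). The bases just after the Cry2 start matched no annotated transcript of that gene, unlike those of the other windows, so its start is less certain. TTATGTAA was in Per3 alone among the members, as 2 copies that began 205 and 158 bases before the start, against 0.819% of all windows. The receptor element AGGTCA was in Per1 and in 1 of 3 Clock windows (14% of all windows). GGGTCA (11.6%), TTACGTAA (0.113%) and TGACGTCA (1.55%) were in none of the members' windows, and the windows of Arntl and Npas2 held no match. These are letters in a window and not measured binding sites, and bases outside the windows, such as those after a start, were not searched.

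Reads in genes, rebuilt from the deposited values, ranged from 16251563 to 27391049 per library. The members were read with very different precision: Ciart had 12 to 144 reads per library and Clock 1135 to 2917. Cdkn1a, a target of p53, was 57.9 ± 30.3 FPKM with doxorubicin at 4 h and 3.92 ± 1.25 in the control (SD, n = 5), and Id2, a target of the SMADs that AMH signals through, was 70.1 ± 2.57 with AMH and 42.8 ± 2.78 in the control at 4 h. The marker lists of uterine epithelium, stroma and myometrium (7, 6 and 5 genes) were all measured, and their mean log2(FPKM + 1) lay between 5.3 and 9.49 in every library. Beside these, 4 libraries stood apart in the mean log2(FPKM + 1) of 10 oestrogen-responsive genes: control libraries 1, 2 and 4 at 24 h (6.14, 7.26 and 5.98) and AMH library 3 at 24 h (5.61), where the other libraries lay between 3.32 and 5.3. They are called the high-oestrogen libraries here. Another 8 libraries, called high-oviduct, had a mean of 2.21 to 4.1 over 13 oviduct and ciliated-cell markers, against 0.64 to 1.66 in the other 32; they were control library 4, doxorubicin libraries 3 and 4 and library 5 of both agents at 4 h, and doxorubicin libraries 3, 4 and 5 and library 4 of both agents at 24 h. Where leaving out either set ended a call of a member, the value without it is given. Without the high-oestrogen set the 24 h control kept only libraries 3 and 5. Without the high-oviduct set the 24 h doxorubicin group kept only libraries 1 and 2. Fewer libraries and the state of those left out cannot be told apart in a lost call. Scores of 5 ovary markers (0.7 to 3.64) and 4 adipocyte markers (0.03 to 7.09) also varied, and no set was left out for them.

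FPKM is scaled to gene length, so levels can be set beside each other across the members. Averaged over the 40 libraries, Per1 was the most abundant member at 12.3 FPKM, followed by Cry2 at 8.64, Clock at 6.80, Per3 at 6.59, Per2 at 6.58, Cry1 at 6.47, Npas2 at 4.26, Arntl at 2.84 and Ciart at 1.55. Ordered by level, the 8 groups of a gene formed a ladder in which most steps were smaller than the spread: the ranges of neighbouring groups overlapped for 61 of 63 neighbours, and the gap between their means exceeded the larger of their SDs for 16. The 2 neighbours whose ranges stood apart were AMH at 4 h below doxorubicin at 24 h for Arntl (1.76 and 3.95 FPKM) and doxorubicin with AMH below AMH alone at 4 h for Npas2 (2.27 and 3.55 FPKM). For Arntl, Npas2 and Cry1 the 4 groups at 4 h filled the lower places of the order and the 4 groups at 24 h the upper places; for Per3 and Ciart the order was the other way round. For Clock the same split as for Arntl held. Per1, Per2 and Cry2 mixed the times: the highest Per1 mean was that of AMH at 4 h (17.4 FPKM) and the next that of doxorubicin at 24 h (15.5 FPKM).

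**Figure D1:**
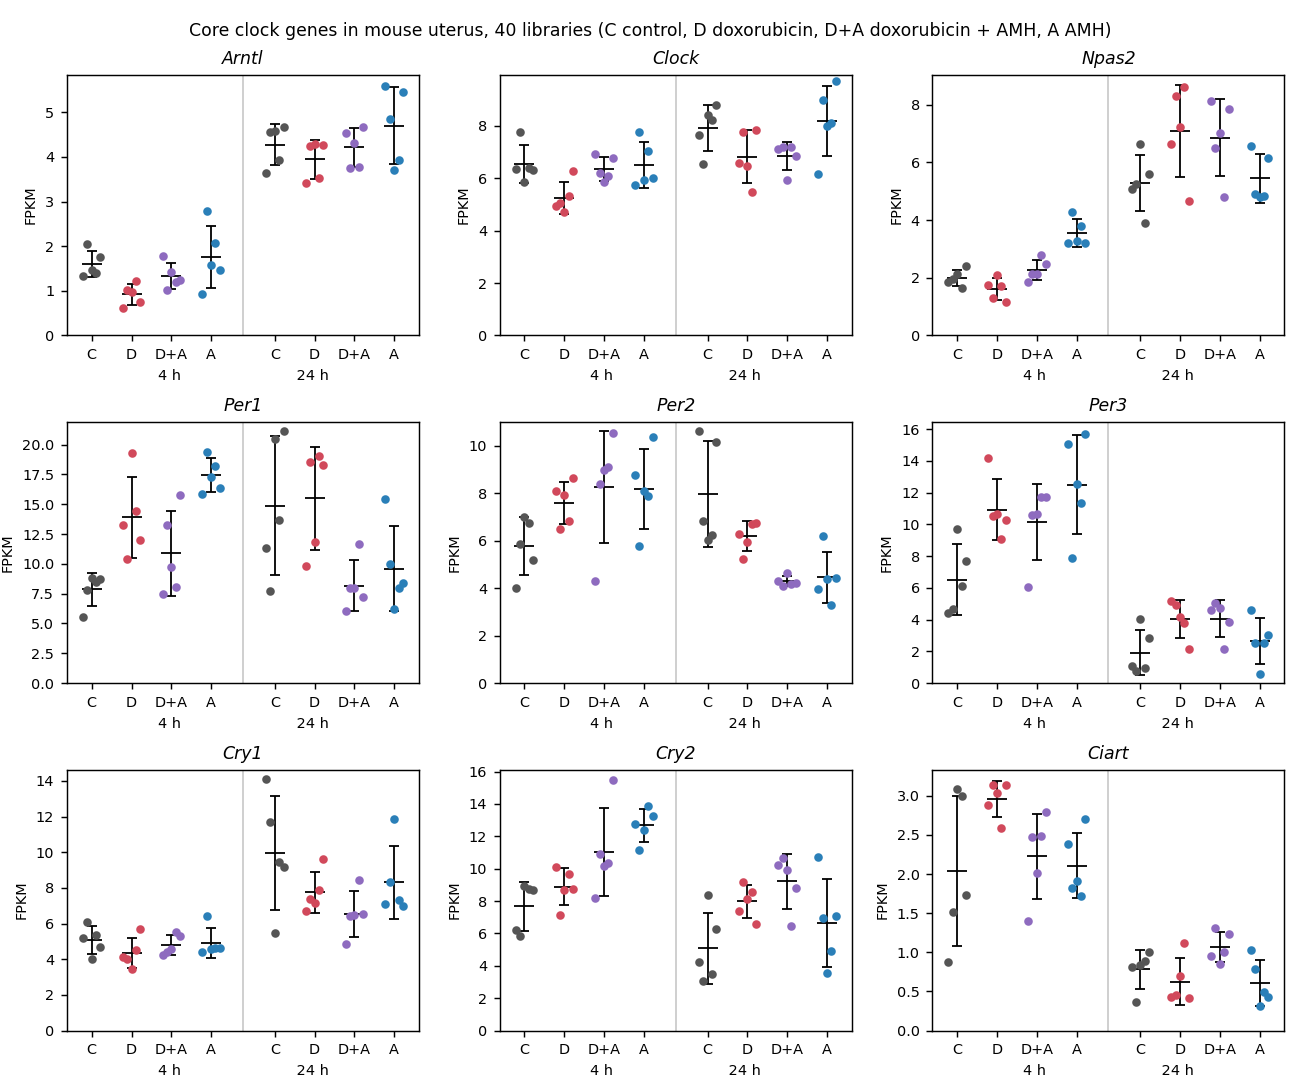
Level of each of the 9 core clock genes (FPKM, linear axis from 0) in the 40 libraries, 1 point per library, by treatment and time; horizontal bars are group means and error bars SDs (n = 5). All 20 Arntl values at 24 h lie above all 20 at 4 h, while Per3 and Ciart are higher at 4 h.

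Arntl, the activator without which the loop does not run, was higher at 24 h than at 4 h in all 4 treatments, and so was its partner Npas2, whereas Clock, the other partner, did not pass the test in any of the 16 comparisons. Over all treatments the ratio of the mean at 24 h to that at 4 h was 3.05 for Arntl, 2.62 for Npas2 and 1.21 for Clock. Libraries are listed below in the order of their labels, 1 to 5.
In the control, Arntl read 1.34, 2.04, 1.46, 1.39 and 1.76 FPKM at 4 h and 3.63, 4.56, 4.59, 3.93 and 4.67 at 24 h. With doxorubicin it read 0.611, 1.02, 0.973, 1.22 and 0.757 FPKM at 4 h and 3.41, 4.23, 4.29, 3.54 and 4.26 at 24 h. Every library at 24 h was above every library at 4 h, and the lowest value of all was in a doxorubicin library at 4 h. With doxorubicin and AMH, Arntl read 1.78, 1.01, 1.43, 1.196 and 1.24 FPKM at 4 h and 4.53, 3.76, 4.32, 3.77 and 4.68 at 24 h. With AMH alone it read 0.934, 2.78, 1.57, 2.07 and 1.47 FPKM at 4 h and 5.59, 4.84, 3.702, 3.92 and 5.45 at 24 h. Across the 40 libraries the highest value at 4 h was 2.78 FPKM, in an AMH library, and the lowest at 24 h was 3.41, in a doxorubicin library, so the times did not overlap. On the log2(FPKM + 1) scale, limma gave log2 difference 1.03, SE 0.13, adjusted p = 3.8e-06 in the control and log2 difference 1.37, SE 0.13, adjusted p = 6.7e-09 with doxorubicin. With doxorubicin and AMH the values were log2 difference 1.16, SE 0.13, adjusted p = 7.1e-07, and with AMH alone log2 difference 1.07, SE 0.13, adjusted p = 2.4e-06.

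Npas2 made the step from 4 h to 24 h as well, and its rise ranked first by p among the 16226 genes with doxorubicin and with doxorubicin and AMH. Control libraries read 1.85, 1.96, 2.12, 1.65 and 2.41 FPKM at 4 h and 5.08, 5.25, 6.63, 3.91 and 5.601 at 24 h (log2 difference 1.06, SE 0.13, adjusted p = 4.3e-06). Doxorubicin libraries read 1.75, 1.30, 2.11, 1.72 and 1.16 FPKM at 4 h and 6.62, 8.32, 7.22, 8.63 and 4.65 at 24 h (log2 difference 1.62, SE 0.13, adjusted p = 7e-10). In both treatments the times did not overlap. Libraries given both agents read 1.86, 2.12, 2.12, 2.77 and 2.46 FPKM at 4 h and 8.14, 6.49, 7.02, 4.79 and 7.86 at 24 h (log2 difference 1.25, SE 0.13, adjusted p = 6.9e-07), again with no overlap. With AMH alone Npas2 read 3.197, 4.27, 3.29, 3.81 and 3.199 FPKM at 4 h and 6.55, 4.896, 4.79, 4.85 and 6.16 at 24 h (log2 difference 0.5, SE 0.13, adjusted p = 0.036). The AMH group thus had the smallest step, from a level at 4 h that was above every library of the other groups at that time. That last call was lost without each of 8 of the 10 AMH libraries (all but 4 h library 2 and 24 h library 1; adjusted p up to 0.089), without the filter (0.068), with the compared groups alone (0.056) and without the high-oestrogen libraries (log2 difference 0.54, adjusted p = 0.057). Clock changed less, from a range of 4.69 to 7.77 FPKM at 4 h to 5.46 to 9.70 at 24 h. Its difference was 0.24 in the control (95% interval 0.04 to 0.44, limma adjusted p = 0.13) and 0.32 with doxorubicin (0.12 to 0.52, 0.097). With AMH it was 0.29 (0.09 to 0.49, 0.073) and with doxorubicin and AMH 0.09 (-0.11 to 0.29). Limma with array weights called Clock higher at 24 h with doxorubicin (0.28, adjusted p = 0.039) and with AMH (0.38, 0.0016).

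Of the 9 members, 6 passed the test between times in the control (4 higher and 2 lower at 24 h), where 7.32% of the genes tested passed (4.28% higher, 3.04% lower). With doxorubicin 5 of 9 passed (3 higher, 2 lower; 1.58% of genes, 0.857% higher and 0.721% lower), with doxorubicin and AMH 2 of 9 (both higher; 0.0740% of genes, 0.0555% higher and 0.0185% lower) and with AMH alone 8 of 9 (3 higher, 5 lower; 4.01% of genes, 2.47% higher and 1.53% lower). The median size of the change over the members, whatever its sign, was 0.77, 0.71, 0.63 and 0.85 in those 4 comparisons on the log2(FPKM + 1) scale, and over all genes 0.18, 0.14, 0.11 and 0.19. Of all genes that passed in the control, 695 were higher and 493 lower at 24 h, and with scaling by total reads in genes 347 and 697. The members called higher were Arntl and Npas2 in every treatment, Cry1 in every treatment but doxorubicin with AMH, and Per1 in the control. The members called lower were all repressor genes.

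Per3, a period gene that acts as a repressor and is also a strongly rhythmic output, had the largest fall of any member on the log2(FPKM + 1) scale in the control and with AMH; with doxorubicin that of Ciart was about as large. Control libraries read 4.42, 4.66, 9.71, 6.11 and 7.68 FPKM at 4 h and 1.06, 0.738, 4.03, 0.954 and 2.82 at 24 h (log2 difference -1.45, SE 0.28, adjusted p = 0.0015). Doxorubicin libraries read 14.2, 10.5, 10.6, 9.05 and 10.3 FPKM at 4 h and 5.15, 4.93, 4.17, 3.79 and 2.16 at 24 h (log2 difference -1.27, SE 0.28, adjusted p = 0.013). In each of these treatments all libraries at 24 h were below all libraries at 4 h. With both agents the values were 6.02, 10.6, 10.6, 11.7 and 11.7 FPKM at 4 h and 4.603, 5.01, 4.72, 2.15 and 3.83 at 24 h, also without overlap, and the difference did not pass (log2 difference -1.14, SE 0.28, adjusted p = 0.16). It did pass with array weights (-1.06, adjusted p = 0.00072) and without the high-oestrogen libraries (-1.14, 0.012), which are in neither group but enter the shared estimate of spread. With AMH alone Per3 read 15.1, 7.86, 12.6, 11.3 and 15.7 FPKM at 4 h and 4.58, 2.54, 0.567, 2.49 and 3.02 at 24 h (log2 difference -1.97, SE 0.28, adjusted p = 6.5e-05), the largest change of any member in any of the comparisons of time. The control call was lost without the high-oestrogen libraries (log2 difference -0.73, adjusted p = 0.15) and the doxorubicin call without the high-oviduct libraries (log2 difference -1.05, adjusted p = 0.24). A fit of the compared groups alone also ended the control call (adjusted p = 0.063).

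Ciart, the repressor with 3 E-boxes in the window printed above, was called lower at 24 h in the same treatments as Per3, from a much lower level. In the control it ranged from 0.882 to 3.08 FPKM at 4 h and from 0.362 to 1 at 24 h, and the ranges overlapped (log2 difference -0.72, SE 0.16, adjusted p = 0.0062). With doxorubicin it read 2.89, 3.14, 3.04, 2.59 and 3.14 FPKM at 4 h and 0.434, 0.449, 0.703, 1.12 and 0.420 at 24 h and gave the largest of its 4 differences (log2 difference -1.3, SE 0.16, adjusted p = 6e-06). AMH alone gave 1.72 to 2.70 FPKM at 4 h and 0.307 to 1.03 at 24 h (log2 difference -0.96, SE 0.16, adjusted p = 0.001). Both agents gave 1.40 to 2.79 and 0.847 to 1.31 FPKM, with no overlap and a difference that did not pass (log2 difference -0.63, SE 0.16, adjusted p = 0.21), although it did with array weights (-0.6, adjusted p = 0.012). The control call was lost without the high-oestrogen libraries (log2 difference -0.6, adjusted p = 0.11) and in a fit of the compared groups alone (adjusted p = 0.14).

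Cry1, a cryptochrome repressor that in many tissues peaks later than the period genes, went with Arntl and not with Per3. It ranged from 4.01 to 6.10 FPKM in the control at 4 h and from 5.44 to 14.1 at 24 h (log2 difference 0.81, SE 0.16, adjusted p = 0.0018). The ranges overlapped there, but not with doxorubicin, at 3.43 to 5.72 and 6.72 to 9.63 FPKM (log2 difference 0.71, SE 0.16, adjusted p = 0.013), or with AMH alone, at 4.39 to 6.43 and 6.996 to 11.9 FPKM (log2 difference 0.64, SE 0.16, adjusted p = 0.028). With both agents the ranges were 4.22 to 5.52 and 4.84 to 8.45 FPKM and the difference did not pass (log2 difference 0.37, SE 0.16, adjusted p = 0.58). The control call was lost without the high-oestrogen libraries (log2 difference 0.43, adjusted p = 0.15), and the doxorubicin call without the high-oviduct libraries (log2 difference 0.53, adjusted p = 0.32). The AMH call was lost without the high-oestrogen library (log2 difference 0.51, adjusted p = 0.059) and without each of 4 h libraries 1, 3, 4 and 5 and 24 h libraries 2 and 3 (adjusted p up to 0.15). A fit of the compared groups alone ended the control and AMH calls (adjusted p = 0.087 and 0.059), and a fit without the filter that with AMH (0.051).

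**Figure D2:**
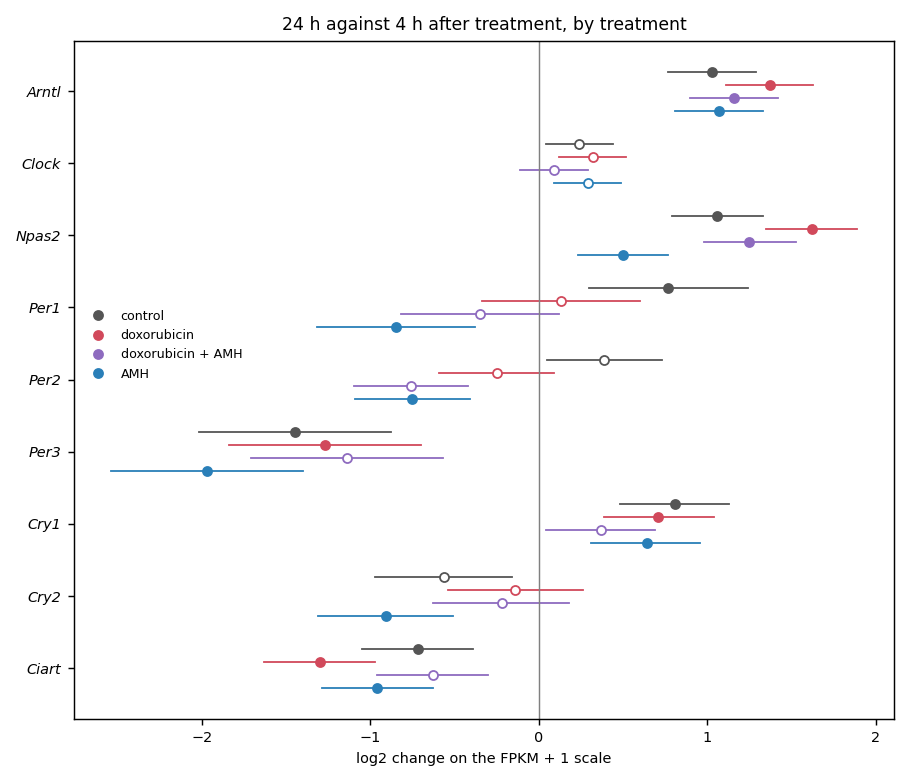
Difference between 24 h and 4 h in log2(FPKM + 1) for each member in each of the 4 treatments, with its 95% confidence interval from the limma fit; filled points passed the test at an adjusted p under 0.05. Arntl and Npas2 lie to the right of 0 in all treatments and Per3 and Ciart to the left, whereas Per1 lies at 0.77 in the control and at -0.85 with AMH.

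AMH alone at 4 h raised 4 of the 9 members and lowered none: Npas2, Per1, Per3 and Cry2. In this comparison 20.0% of all genes passed, 9.13% of all genes as higher and 10.9% as lower. The members' median difference was 0.44 and that of all genes 0.01 on the log2(FPKM + 1) scale. Per1, the period gene that answers fastest to outside signals in many tissues, read 5.52, 7.81, 8.84, 8.52 and 8.72 FPKM in the control and 15.9, 19.4, 17.3, 18.2 and 16.4 with AMH. Each AMH library was above each control library by a wide margin (log2 difference 1.07, SE 0.23, adjusted p = 0.0051). Npas2 did not overlap either, as the values above show (log2 difference 0.6, SE 0.13, adjusted p = 0.0054). Cry2, the second cryptochrome, read 6.195, 5.83, 8.94, 8.73 and 8.66 FPKM in the control and 12.7, 11.2, 12.4, 13.9 and 13.2 with AMH, again without overlap (log2 difference 0.67, SE 0.2, adjusted p = 0.017). Per3 in the same libraries, with the values given above, overlapped in the AMH library at 7.86 FPKM (log2 difference 0.86, SE 0.28, adjusted p = 0.029). Per2 was higher by 0.44 and did not pass (95% interval 0.1 to 0.78; adjusted p = 0.057). Arntl, Clock, Cry1 and Ciart differed by -0.03 to 0.08, with intervals that reached from -0.36 to 0.41. Leaving out control library 1 or 2 ended the Cry2 call (adjusted p up to 0.059). Leaving out control library 1, 2 or 4 or AMH library 1, 3 or 5 ended that of Per3 (adjusted p up to 0.084), as did a pseudocount of 0.1 (log2 difference 0.95, adjusted p = 0.074), no filter (0.86, 0.062) and leaving out the high-oviduct set (0.85, 0.057), with differences of about the same size. Beside these calls, the mean of the 5 myometrium markers was 8.29 to 8.55 with AMH and 8.6 to 8.99 in the control, and the oestrogen-responsive score 3.32 to 4.09 and 4.08 to 5.02, and their part in the result was not tested.

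At 24 h the comparison of AMH with control called 1 of 9 members, Per2, as lower, where 0.462% of genes passed, 0.191% higher and 0.271% lower (31 higher and 44 lower, and 50 and 22 with scaling by total reads). Per2, the period gene closest in role to Per1, read 10.6, 6.83, 6.03, 6.23 and 10.1 FPKM in the control and 3.97, 6.198, 4.38, 3.28 and 4.43 with AMH. Of the AMH libraries 1 reached into the control range, at 6.20 FPKM (log2 difference -0.71, SE 0.17, adjusted p = 0.046). Per1 read 11.3, 7.68, 20.5, 13.7 and 21.1 FPKM in the control and 15.5, 9.95, 6.22, 7.95 and 8.37 with AMH, with wide overlap (log2 difference -0.56, SE 0.23, adjusted p = 0.2). Leaving out control library 1, 2 or 4 or AMH library 1, 4 or 5 ended the Per2 call (adjusted p up to 0.21). So did voom on the rebuilt reads (0.067), scaling by total reads (0.088), no filter (0.076), a fit of the compared groups alone (0.58), and leaving out the high-oviduct libraries (0.062) or the high-oestrogen libraries (log2 difference -0.72, adjusted p = 0.87), where the difference itself was about the same. The other 7 members differed by -0.20 to 0.34.

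The AMH difference changed between the times for Per1 and Per2, and the test of that change itself passed for these 2 of the 9 members; 0.154% of genes passed, 0.0247% higher and 0.129% lower (4 higher and 21 lower, and 14 and 18 with scaling by total reads). Per1 was 1.07 higher with AMH at 4 h and 0.56 lower at 24 h on the log2(FPKM + 1) scale, a change of -1.62 (SE 0.33, limma adjusted p = 0.026) that ranked 10 by p among the 16226 genes. Per2 was 0.44 higher at 4 h and 0.71 lower at 24 h, a change of -1.15 (SE 0.24, adjusted p = 0.029; rank 14). Both groups entered the change: Per1 rose from 4 h to 24 h in the control (log2 difference 0.77, SE 0.23, adjusted p = 0.037) and fell with AMH (log2 difference -0.85, SE 0.23, adjusted p = 0.036). Per2 in the control read 3.99, 5.87, 7.01, 6.75 and 5.19 FPKM at 4 h and its difference over time did not pass (log2 difference 0.39, SE 0.17, adjusted p = 0.15). With AMH Per2 read 8.78, 5.76, 8.07, 7.87 and 10.4 FPKM at 4 h and fell (log2 difference -0.75, SE 0.17, adjusted p = 0.016). With doxorubicin and AMH its difference over time was about as large and did not pass (log2 difference -0.76, SE 0.17, adjusted p = 0.072). That difference did pass with array weights (-0.83, adjusted p = 0.00061) and without the high-oestrogen libraries (-0.76, 0.036). Cry2 fell in the AMH group as well, from the values above to 10.7, 6.98, 3.56, 4.88 and 7.099 FPKM at 24 h (log2 difference -0.91, SE 0.2, adjusted p = 0.014), although its AMH difference was not shown to change with time (-0.34, adjusted p = 0.65). Without the high-oestrogen libraries the changes were -2.04 for Per1 (adjusted p = 0.0025) and -1.16 for Per2 (0.034). The Per1 change was lost without each of 7 of the 20 libraries (control 4 h 1 and 2, AMH 4 h 2, control 24 h 3 and 5, AMH 24 h 3 and 4; adjusted p up to 0.07), and the Per2 change without each of 9 (control 4 h 1 and 2, AMH 4 h 1, 3 and 5, control 24 h 1 and 5, AMH 24 h 3 and 4; adjusted p up to 0.079), without the filter (0.051) and in a fit of the compared groups alone (0.065).
The calls of Per1, Per2 and Cry2 over time rested on single libraries too. The Per1 rise in the control was lost without each of 8 libraries (4 h libraries 1, 2, 3 and 5, 24 h libraries 1, 3, 4 and 5; adjusted p up to 0.1), by voom (0.087), with scaling by total reads (0.088), without the filter (0.073) and with the compared groups alone (0.15). With AMH, the Per1 fall was lost without any 4 h library or 24 h library 2, 3 or 4 (adjusted p up to 0.18), the Per2 fall without 4 h library 1 or 5 or 24 h library 3 or 4 (up to 0.065), and the Cry2 fall without 24 h library 3 (0.082). A fit of the compared groups alone ended all 3 of these falls (adjusted p = 0.053 for Per1, 0.053 for Per2 and 0.06 for Cry2), and that of Per1 was also lost without the filter (0.069) and without the high-oestrogen library (log2 difference -0.73, adjusted p = 0.081).

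Doxorubicin at 4 h called 0 of the 9 members by limma, where 0.493% of genes passed; at an unadjusted p under 0.05 there were 6 members and 1955 genes, voom on the rebuilt reads called 0 members and a fit with array weights 1 (Per1). Per1 read 13.3, 10.4, 19.3, 14.4 and 12.04 FPKM with doxorubicin, each value above each control value (log2 difference 0.73, SE 0.23, adjusted p = 0.16). Per3 with doxorubicin overlapped the control in 1 library, at 9.05 FPKM (log2 difference 0.7, SE 0.28, adjusted p = 0.3). Per2 read 8.09, 6.48, 7.90, 6.81 and 8.62 FPKM with doxorubicin and overlapped the upper control libraries (log2 difference 0.36, SE 0.17, adjusted p = 0.38). Arntl was lower by 0.44 without overlap (95% interval -0.7 to -0.18; adjusted p = 0.12), Clock had log2 difference -0.27, SE 0.1, adjusted p = 0.24, and Ciart log2 difference 0.44, SE 0.16, adjusted p = 0.25. Npas2, Cry1 and Cry2 differed by -0.21, -0.18 and 0.20.

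At 24 h doxorubicin called 2 of 9 members, Per3 and Cry2, both higher, where 18.4% of genes passed, 8.44% higher and 9.95% lower (1369 higher and 1615 lower, and 2281 and 646 with scaling by total reads). Per3 with doxorubicin lay between 2.16 and 5.15 FPKM, where the control libraries fell into a low set (1, 2 and 4, up to 1.06 FPKM) and a pair at 2.82 and 4.03 that overlapped the treated ones (log2 difference 0.88, SE 0.28, adjusted p = 0.03). Cry2 read 4.24, 3.03, 8.36, 3.52 and 6.26 FPKM in the control and 7.41, 9.19, 8.13, 8.59 and 6.59 with doxorubicin (log2 difference 0.63, SE 0.2, adjusted p = 0.028). Of the control libraries, library 3 alone reached into the doxorubicin range, at 8.36 FPKM, and libraries 1, 2 and 4 were lowest. Those 3 are high-oestrogen libraries, and without the high-oestrogen libraries the differences were 0.16 for Per3 (adjusted p = 0.87) and 0.12 for Cry2 (adjusted p = 0.88). Of single libraries, control library 1, 2 or 4 or doxorubicin library 2, 3 or 4 ended both calls when left out, and doxorubicin library 1 that of Per3 (adjusted p up to 0.11 for each gene), while leaving out the high-oviduct libraries ended that of Cry2 (log2 difference 0.68, adjusted p = 0.082), although the difference was no smaller. Both calls were also lost with the compared groups alone (0.16 each) and without the filter (0.061 for Per3 and 0.057 for Cry2). Beside these calls, the oviduct score was 0.82 to 3.33 with doxorubicin and 0.71 to 0.99 in the control, and the myometrium score 7.6 to 8.5 and 8.83 to 9.49, and their part in the result was not tested. Npas2 was higher by 0.35 and did not pass (95% interval 0.08 to 0.62; adjusted p = 0.059), and by 0.46 with scaling by total reads (adjusted p = 0.024). The doxorubicin difference was not shown to change from 4 h to 24 h for any member: limma called 0 of 9 (0.0123% of genes), with 3 members and 1580 genes at an unadjusted p under 0.05, 0 members by voom and 1, Npas2, with array weights.

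Adding AMH to doxorubicin called 0 of 9 members at 4 h (0.00616% of genes; 3 members and 1123 genes at an unadjusted p under 0.05, 0 by voom, 0 with array weights) and 0 of 9 at 24 h (0.333% of genes; 3 members and 2017 genes, 0 by voom, 2 with array weights). At 24 h Per1 read 9.804, 18.5, 11.8, 19.03 and 18.3 FPKM with doxorubicin and 6.02, 7.99, 7.95, 11.7 and 7.24 with both agents. The groups overlapped only between the 9.80 FPKM of doxorubicin library 1 and the 11.7 FPKM of library 4 given both (log2 difference -0.83, SE 0.23, adjusted p = 0.11). Without the high-oestrogen libraries, which are in neither group but enter the shared estimate of spread, that adjusted p was 0.03. Per2 read 6.27, 5.24, 5.95, 6.71 and 6.74 FPKM with doxorubicin and 4.29, 4.096, 4.63, 4.19 and 4.19 with both, with no overlap and no call (log2 difference -0.44, SE 0.17, adjusted p = 0.28). For the other members the differences at 24 h ran from -0.22 to 0.36.

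Against control, both agents together called 0 of 9 members at 4 h (0.394% of genes; 3 members and 2875 genes at an unadjusted p under 0.05, 0 by voom, 3 with array weights) and 5 of 9 at 24 h (2 higher, 3 lower), where 34.3% of genes passed, 15.7% higher and 18.6% lower (2555 higher and 3011 lower; with scaling by total reads 3852 and 1670, and a median of all genes of 0.11). This comparison uses the same control libraries as those of doxorubicin and of AMH alone. At 24 h Per3 and Cry2 were higher and Per1, Per2 and Cry1 lower. Per1 with both agents lay between 6.02 and 11.7 FPKM and overlapped the 2 lowest control libraries (log2 difference -0.73, SE 0.23, adjusted p = 0.016). Per2 lay between 4.10 and 4.64 FPKM, below all control libraries (log2 difference -0.73, SE 0.17, adjusted p = 0.0021). Cry1 read 14.1, 11.7, 5.44, 9.43 and 9.16 FPKM in the control and 4.84, 6.41, 6.48, 8.45 and 6.53 with both (log2 difference -0.5, SE 0.16, adjusted p = 0.016). Cry2 read 10.2, 10.7, 9.93, 6.43 and 8.79 FPKM with both, and 4 of those values were above the highest control value of 8.36 FPKM (log2 difference 0.8, SE 0.2, adjusted p = 0.0034). For Per3 the difference was log2 difference 0.89, SE 0.28, adjusted p = 0.016. Without the high-oestrogen libraries the 24 h control was libraries 3 and 5 alone. The Per1 difference was then -1.28 (adjusted p = 0.016), Per2 -0.75 (0.11), Per3 0.17 (0.87), Cry2 0.29 (0.62) and Cry1 -0.12 (0.84). Leaving out control library 1, 2 or 4 ended the Per3 call (adjusted p up to 0.07), and leaving out control library 1 or 2 or library 1 of both agents that of Cry1 (up to 0.082). With scaling by total reads the Per1 and Cry1 calls were lost (adjusted p = 0.058 and 0.051), the first also by voom (0.059). A fit of the compared groups alone ended 4 of the 5 calls (Per1 0.081, Cry2 0.055, Per3 0.079 and Cry1 0.12). The myometrium score, 8.05 to 8.32 with both agents against 8.83 to 9.49 in the control, did not overlap either, and its part was not tested.

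Whether AMH acted differently with doxorubicin than without it was tested as an interaction, and 0 of 9 members passed at 4 h or at 24 h (0% of genes at each; 2 members and 2356 genes at 4 h and 1 member and 675 genes at 24 h at an unadjusted p under 0.05; voom called 0 members at each, array weights 2 and 0). At 4 h Per1 had the largest value: AMH was 1.07 above control without doxorubicin and -0.35 with it, an interaction of -1.41 (SE 0.33; 95% interval -2.08 to -0.75; adjusted p = 0.13; rank 14 of 16226). Per1 with both agents at 4 h read 7.49, 13.2, 9.76, 8.099 and 15.8 FPKM, and overlapped the control and doxorubicin values but not those of AMH alone. In a fit of the groups compared alone the adjusted p was 0.0069, with array weights 0.0019 and without the high-oestrogen libraries 0.036. Per3 had an interaction of -0.98 at 4 h (adjusted p = 0.27; 0.043 in a fit of the groups compared alone and 0.021 with array weights).

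**Figure D3:**
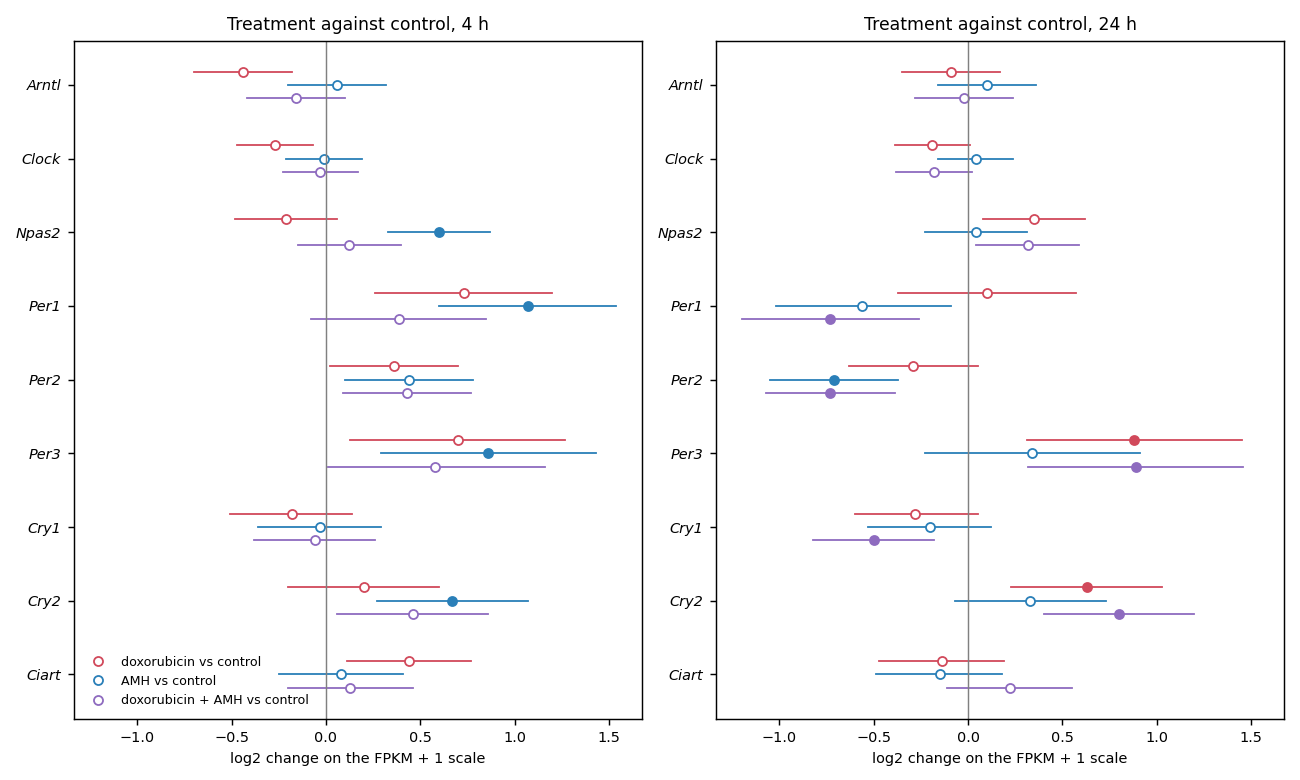
Difference from control in log2(FPKM + 1) for each member with doxorubicin, AMH or both, at 4 h (left) and 24 h (right), with 95% confidence intervals from the limma fit; filled points passed at an adjusted p under 0.05. The 3 comparisons at each time share their control libraries; AMH has 4 filled points at 4 h, among them Per1 at 1.07, and both agents have 5 at 24 h.

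At 24 h Per3 and Cry2 were lowest in the libraries with the highest oestrogen-responsive score. All 10 genes of that list were measured, none was at 0 in all libraries, and the score at 24 h ranged from 3.93 to 7.26 in the control, 4.16 to 5.3 with doxorubicin, 3.68 to 4.49 with both and 3.53 to 5.61 with AMH. The 4 high-oestrogen libraries had the lowest Per3 values of the whole series (1.06, 0.738, 0.954 and 0.567 FPKM). They also had the lowest Cry2 values (4.24, 3.03, 3.52 and 3.56 FPKM). Control libraries 3 and 5, with scores of 3.93 and 4.19, read 4.03 and 2.82 FPKM of Per3 and 8.36 and 6.26 of Cry2. Cry1 was 14.1, 11.7 and 9.43 FPKM in the high-oestrogen control libraries and 11.9 in that of AMH, against 5.44 and 9.16 in the other control libraries. As deviations from group means over 40 libraries, Per3 had a Pearson r of -0.65 with the score (permutation p = 0.0016, adjusted over 90 relations 0.048; Spearman rho -0.49, adjusted p = 0.12; r = -0.56 without the 2 libraries farthest from the median). Cry2 had r = -0.67 (permutation p = 0.0011, adjusted 0.048; rho -0.54, adjusted 0.12; -0.55 without the 2 libraries). Clock had r = -0.59 with the 7-gene score of uterine epithelium (permutation p = 0.00065, adjusted 0.048; rho -0.63, adjusted 0.012; -0.5 without the 2 libraries), a score that ranged from 5.3 to 7.19. These were 3 of 90 relations between 9 members and 10 marker lists; without the high-oestrogen libraries none of the 3 passed (Clock adjusted p = 0.11) and 1 other did, Ciart with the 6-gene score of uterine stroma (r = -0.55, permutation p = 0.00045, adjusted p = 0.04; rho -0.54, adjusted 0.086; r = -0.46 without the 2 libraries). What part the cell make-up or hormone state of a library had in the members' levels was not tested.

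**Figure D4:**
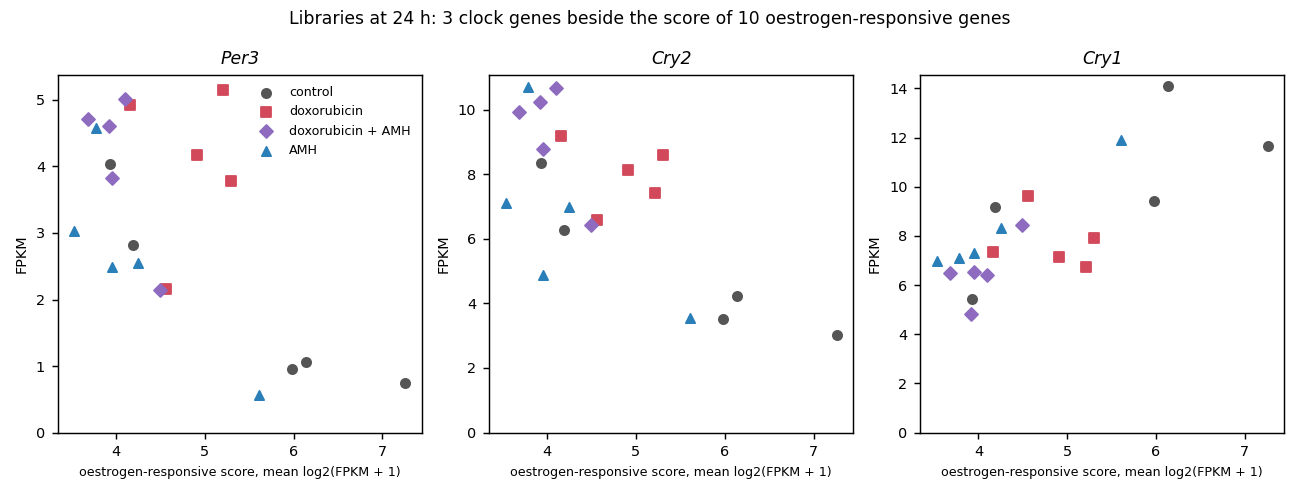
Level (FPKM) of Per3, Cry2 and Cry1 in the 20 libraries at 24 h against the library's mean log2(FPKM + 1) of 10 oestrogen-responsive genes, 1 point per library by treatment. The 3 control libraries and 1 AMH library with scores above 5.5 lie lowest for Per3 and Cry2, at up to 1.06 and 4.24 FPKM.

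Some members varied together among libraries that share treatment and time, Per3 and Cry2 most closely. Of 36 pairs of members, 10 passed as correlations of deviations from the group means over 40 libraries (100000 permutations within groups, Benjamini-Hochberg over the 36 pairs), 8 positive and 2 negative. The closest pair was Per3 and Cry2 (r = 0.86, rho = 0.77, permutation p = 1e-05, the smallest that the permutations can give; adjusted 0.00036; r = 0.8 without the 2 libraries farthest from the median). Cry1 had negative values with both genes: r was -0.72 with Per3 (rho -0.61, permutation p = 3e-05, adjusted 0.00054; -0.61 without the 2) and -0.57 with Cry2 (rho -0.39, permutation p = 0.0032, adjusted 0.012; -0.49 without the 2). Ciart went with Per2 (r = 0.57), Cry2 (0.55), Per3 (0.54) and Per1 (0.50), each at an adjusted permutation p of 0.0048, with rho of 0.5, 0.52, 0.49 and 0.42. Per1 and Cry2 had r = 0.62 (adjusted 0.0048), Npas2 and Cry2 0.57 (0.0018) and Npas2 and Per3 0.52 (0.0052). Over all 40 libraries Arntl and Clock passed with none of the others; their own r was 0.34 (adjusted permutation p = 0.16). Of the 10 pairs 2 did not pass by rank, Cry1 with Cry2 (adjusted p of rho 0.1) and Per1 with Ciart (0.056). Without the high-oestrogen libraries 9 pairs passed, 7 of them among the 10. The 3 that were lost were Cry1 with Cry2 (r = -0.34, adjusted p = 0.11), Per1 with Cry2 (0.41, 0.098) and Per1 with Ciart (0.42, 0.061), and the 2 gained were Clock with Per3 (-0.54, 0.015) and Clock with Cry1 (0.44, 0.024). Without the high-oviduct libraries 11 passed: Npas2 with Per3 was lost (0.47, 0.075), and Per1 with Per3 (0.67, 0.012) and Arntl with Npas2 (0.46, 0.049) were gained.

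**Figure D5:**
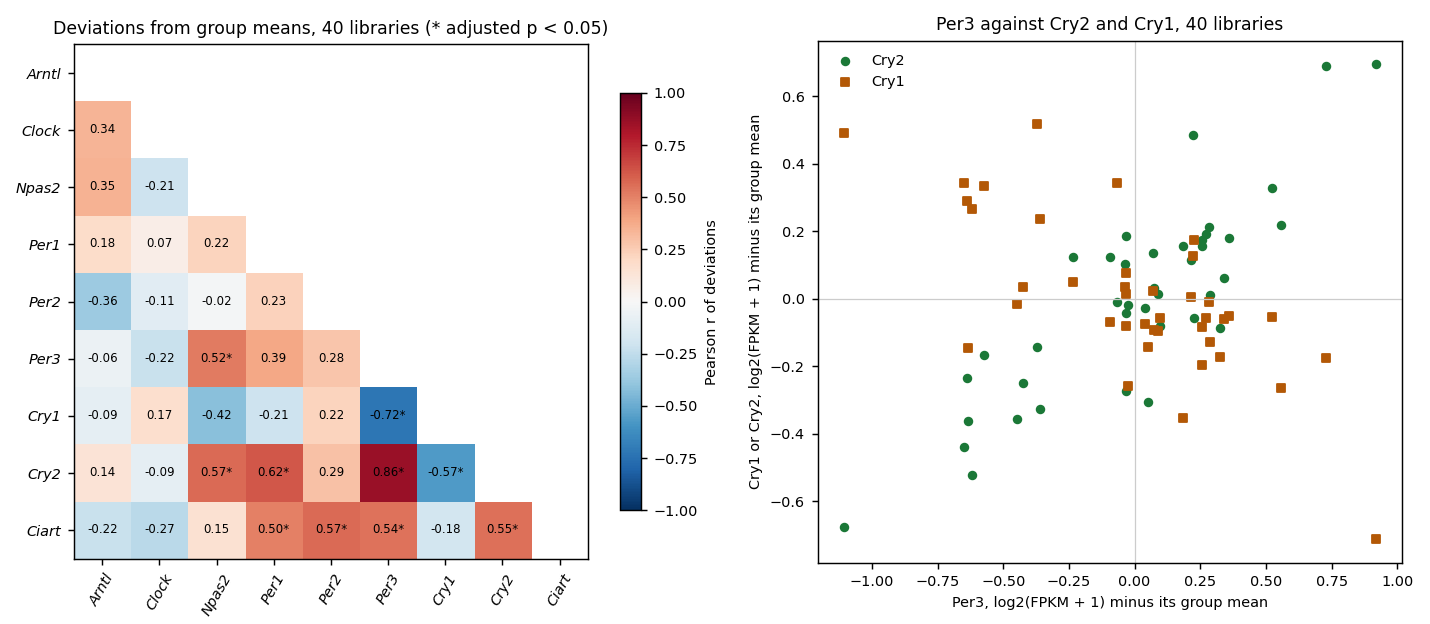
Left, Pearson r of deviations from group means in log2(FPKM + 1) for each pair of members over 40 libraries, with asterisks at an adjusted permutation p under 0.05. Right, the deviations of Cry2 (circles) and Cry1 (squares) against those of Per3, 1 point per library; Cry2 climbs with Per3 (r = 0.86) and Cry1 descends (r = -0.72).

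Relations between members were also read as ratios of FPKM within a library, which do not depend on how libraries are scaled. Per3 was above Arntl in all libraries at 4 h, with a median ratio of 4.37 in the control, 10.9 with doxorubicin, 9.42 with both agents and 8.01 with AMH. At 24 h the medians were 0.291, 1.07, 1.02 and 0.555. The lowest ratio at 4 h was 2.28 and the highest at 24 h 1.51, so the times did not overlap over 20 and 20 libraries. Cry1 over Cry2 had a median of 0.613 in the control at 4 h and 2.68 at 24 h, with a range of 0.651 to 3.85 at 24 h. With both agents that ratio was 0.448 at 4 h and 0.653 at 24 h. Npas2 over Clock had a median of 0.291 in the control at 4 h and 0.549 with AMH, where the 5 values lay between 0.534 and 0.556. At 24 h it was 0.665 in the control and 1.07 with doxorubicin, with overlap. A ratio shows unequal change and not which of its genes changed.

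The wider clock was counted from lists of its known genes. In the control, 7 of 12 genes of the second loop and its output factors passed between times, 1 higher and 6 lower at 24 h, with a median difference of -0.72 against 0.01 over all genes. Nfil3, the D-box repressor, rose from 4.23 ± 0.628 to 24.8 ± 4.76 FPKM (SD, n = 5; log2 difference 2.29, SE 0.21, adjusted p = 4.3e-09). Dbp, the D-box activator and itself an E-box target, fell from 48.2 ± 10.7 to 6.64 ± 4.59 FPKM (log2 difference -2.86, SE 0.34, adjusted p = 1.9e-06), and Nr1d1 from 51.6 ± 11.4 to 10.6 ± 5.98 FPKM (-2.3, SE 0.3, adjusted p = 7.7e-06). Tef fell from 23.2 ± 3.05 to 8.83 ± 3.995 FPKM (-1.39, SE 0.22, adjusted p = 0.00013). Dbp and Nr1d1 overlap Sphk2 and Thra on the other strand, and whether counting used strand is not given. With doxorubicin 6 of the 12 passed between times (1 higher, 5 lower), with both agents 3 (1 and 2) and with AMH 8 (1 and 7).

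The same list was compared between treatments. AMH at 4 h raised 4 and lowered 0 of 12, where 9.13% of all genes were higher. Among them, Hlf was 12.2 ± 1.62 FPKM against 5.19 ± 1.05 in the control (log2 difference 1.1, SE 0.26, adjusted p = 0.0065), Rora 3.83 ± 0.372 against 1.84 ± 0.419 and Tef 38.6 ± 5.599 against 23.2 ± 3.05. Doxorubicin at 4 h called 0 by limma, with 3 at an unadjusted p under 0.05 and 0 by voom. Doxorubicin at 24 h raised 7 (8.44% of all genes were higher), with Nr1d1 at 20.5 ± 3.78 FPKM against 10.6 ± 5.98 in the control (log2 difference 1.02, adjusted p = 0.021). Both agents at 24 h raised 7 and lowered 2 (15.7% and 18.6% of all genes), with Nr1d1 at 39.4 ± 13.5 FPKM (1.87, adjusted p = 9.9e-05) and Nfil3 at 9.01 ± 1.79 against 24.8 ± 4.76 (-1.36, adjusted p = 4.7e-05). Nfil3 was also lower with AMH alone at 24 h (11.2 ± 1.11 FPKM; -1.06, adjusted p = 0.014) and with both agents than with doxorubicin (-0.93, adjusted p = 0.036), the 1 gene of the list called in each of those comparisons. The high-oestrogen libraries are control libraries 1, 2 and 4 and AMH library 3 at 24 h. The calls of this list were not repeated without them.

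Kinases, ligases and other partners that modify clock proteins were a list of 27 genes. Between times 2 of 27 passed in the control (Csnk1d and Fbxw11, higher by 0.25 and 0.29; 7.32% of all genes passed), 0 with doxorubicin (limma; 5 at an unadjusted p under 0.05, 0 by voom), 0 with both agents (0 unadjusted, 0 by voom) and 5 with AMH (2 higher, 3 lower; 4.01% of all genes). AMH at 4 h raised 4 and lowered 6 of them, where 9.13% of all genes were higher and 10.9% lower. Sirt1, a deacetylase, was 8.11 ± 0.719 FPKM with AMH and 5.96 ± 0.443 in the control (log2 difference 0.39, adjusted p = 0.0048). Glucocorticoid-responsive genes, 11 of 12 tested, gave 5 higher with AMH at 4 h (9.13% of all genes), among them Tsc22d3 (34.7 ± 1.88 FPKM against 14.9 ± 1.09; log2 difference 1.17, adjusted p = 0.0068) and Klf9 (0.99, adjusted p = 0.0081). At 24 h AMH lowered 1 of them, Errfi1, from 54.4 ± 11.9 to 18.8 ± 4.02 FPKM (-1.48, adjusted p = 0.00072), and its AMH difference changed from 4 h to 24 h by -1.96 (adjusted p = 0.0015), as those of Per1 and Per2 did. Both agents lowered 2 of them against doxorubicin at 24 h, Errfi1 and Dusp1 (-1.29 and -0.85, adjusted p = 0.0041 and 0.04). Of 11 immediate early genes, which answer to outside signals within minutes to hours, AMH called 0 at 4 h and 0 at 24 h by limma (1 and 2 at an unadjusted p under 0.05, 0 by voom at each). Of 18 rhythmic output genes, AMH at 4 h raised 7 and lowered 2 (9.13% and 10.9% of all genes), with Pik3ip1 higher by 1.69 (adjusted p = 0.0084) and Usp2, which Gm49380 overlaps on the other strand, by 0.72 (adjusted p = 0.013), while at 24 h against 4 h the control had 3 higher and 1 lower, among them Wee1 (0.64, adjusted p = 0.04).

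The genes most like Arntl and Per2 were sought among 11344 protein-coding genes by Pearson r of log2(FPKM + 1) over the 40 libraries, which share treatments and times. Most like Arntl were Nfil3 (r = 0.83), Banp (0.81), Wnk1 (0.81), Ndel1 (0.76) and Mn1 (0.75), and most opposite Dbp (-0.84), Tef (-0.81), Zmym3 (-0.75), Nr1d2 (-0.73) and Nr1d1 (-0.73). Between the times, Dbp ranged from 37.5 to 113 FPKM at 4 h and from 2.60 to 26.3 at 24 h, with no overlap, while its r with Arntl was -0.44 within the 4 h libraries and 0.21 within those at 24 h. Nfil3 had a median of 3.17 FPKM at 4 h and 12.5 at 24 h, with ranges that only touched, and within times its r was 0.28 and -0.10. Wnk1 and Mn1 kept positive values within times (0.45 and 0.38 for Wnk1, 0.39 and 0.30 for Mn1). For Per2 the values were lower, with Slc41a1 (0.57), Ankrd12 (0.53), Fbrsl1 (0.53), Myo3b (0.52) and Zdhhc20 (0.51) most like it and Spon2 (-0.52), Sumf2 (-0.52), Mdfic (-0.52), Leo1 (-0.46) and Ier5 (-0.46) most opposite. Slc41a1 held its likeness within each time (r = 0.58 and 0.64).

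Other genes overlap 6 of the members in the table. Per3 lies within Camta1, a protein-coding gene on the same strand that averaged 1.03 FPKM, and Clock holds the pseudogene Ube2n-ps1 (3.28 FPKM on average). The Per3 values of the high-oestrogen libraries, 0.567 to 1.06 FPKM, are of the same size as that Camta1 level. How reads in both genes were counted is not given, so these low values are uncertain. Cry2 and Ciart have D930015M05Rik and C920021L13Rik on the other strand, at 1.01 and 0.85 FPKM on average. The Ciart values at 24 h, of 0.307 to 1.31 FPKM, are of the same size as that antisense level, and whether counting used strand is not given, so they are uncertain. Overlaps of Arntl and Npas2 averaged at most 0.167 FPKM, and Per1, Per2 and Cry1 had none. By mm10 coordinates the members are Arntl (ENSMUSG00000055116, chr7:113207465-113314126), Clock (ENSMUSG00000029238, chr5:76209868-76304792), Npas2 (ENSMUSG00000026077, chr1:39193731-39363236), Per1 (ENSMUSG00000020893, chr11:69095217-69109960), Per2 (ENSMUSG00000055866, chr1:91415982-91459324), Per3 (ENSMUSG00000028957, chr4:151003652-151044665), Cry1 (ENSMUSG00000020038, chr10:85131700-85185064), Cry2 (ENSMUSG00000068742, chr2:92403646-92434043) and Ciart (ENSMUSG00000038550, chr3:95878503-95882251).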

How the data were processed

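The authors deposited 1 table of FPKM (fragments per kilobase of gene, scaled to library depth) for 54532 genes in 40 libraries of mouse uterus, 8 groups of 5; the build is mm10 per the submitters' processing notes. Which aligner and counter were used, and whether strand was used, is not given in the sources used here. The deposited FPKM values gave whole reads for 100% of values within a tolerance of 0.01, at 16251563 to 27391049 reads in genes per library, and the read total they were divided by was 85.9% to 105.7% of that sum, so the table was already scaled between libraries. Replicates of a group all differed by more than sampling noise (chi-square of at least 8.947 per degree of freedom).

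FPKM was analysed as log2(FPKM + 1) in genes with at least 1 FPKM in at least 5 libraries (16226 genes) with limma 3.58.1 (R 4.3.3, trend, 8 groups, 32 residual degrees of freedom) and Benjamini-Hochberg adjustment over all genes in each of 16 comparisons; a call is an adjusted p under 0.05. Intervals are 95% for the difference. Correlations used deviations from group means and 100000 permutations within groups (Python 3.11.15, scipy 1.17.1). The scripts were tested on simulated data.

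All 9 members are named in the text. Genes of the wider lists are named from the up to 4 per list and comparison with the lowest p among those called, some of which are not reported here, and the genes most like Arntl and Per2 are the 5 highest and 5 lowest by r among 11344 protein-coding genes. The members and lists were chosen with earlier results of these data known. Alternatives were other scalings, a pseudocount of 0.1, filters at 0 and 5 FPKM, the compared groups alone, array weights, a replicate block and voom on the rebuilt reads. Single libraries and the high-oestrogen or high-oviduct libraries were also left out. Calls in the wider lists were not repeated under these alternatives, apart from voom. Replicate numbers were not used for pairing.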

Additional observations from a re-analysis of the deposited data

Results flagged for a closer look

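In 6 of 72 groups of 5 values (9 genes in 8 groups) 1 library stood far from the other 4 by Dixon's criterion, which chance alone meets in about 1 in 20 groups. Clock was 7.741 FPKM in control library 2 at 4 h, above the others, and 5.942 FPKM in library 3 of doxorubicin with AMH at 24 h, below the others. Per3 was 6.022 FPKM in library 1 of doxorubicin with AMH at 4 h, where the other libraries were at 10.6 FPKM or more. Cry1 was 6.427 FPKM in AMH library 2 at 4 h and 11.88 FPKM in AMH library 3 at 24 h, each the highest of its group, and the second of these is a high-oestrogen library. Ciart was 0.3617 FPKM in control library 2 at 24 h, the library with the highest oestrogen-responsive score.

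The AMH difference was not the same at the 2 times for 2 genes by the test of the change itself: -1.62 for Per1 and -1.15 for Per2 on the log2(FPKM + 1) scale (limma adjusted p = 0.026 and 0.029).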

How the results depend on the processing

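Of 35 calls of members, 12 held in every alternative, 20 when any 1 library was left out, and 0 of 748 alternative values changed sign. By setting, the calls kept were 34 of 35 with a pseudocount of 0.1, 26 without the filter, 28 of 28 with a filter at 5 FPKM (7 members, without Arntl and Ciart), 35 with median-of-ratios scaling (whose factor was 1.004 in all 40 libraries, so that it could move nothing), 31 with scaling by total reads (chosen after seeing the data), 18 with the compared groups alone, 35 with array weights, 32 with voom, 30 without the high-oviduct libraries and 22 without the high-oestrogen libraries. The replicate block kept 35 of 35 and left the counts of members called at 0, 2, 4, 1, 0, 0, 0 and 5 for the treatment comparisons in the order of the plots and 6, 5, 2 and 8 between times. Same-numbered libraries correlated at -0.71 to 0.39, which does not settle whether they share anything beyond a number.

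Counts of members called that moved by more than 1.5 times were as follows. Array weights gave 1 for doxorubicin at 4 h, 4 at 24 h, 4 for AMH at 24 h, 2 for adding AMH to doxorubicin at 24 h, 3 for both agents at 4 h, 5 between times with both agents, 1 for the change of the doxorubicin difference and 2 for the interaction at 4 h. Without the filter they were 0 for doxorubicin and 0 for AMH at 24 h, 5 between times with AMH and 1 for the change of the AMH difference. The compared groups alone gave 0, 0, 1 (both agents at 24 h), 2 (between times in the control), 3 (with AMH), 1 (change of the AMH difference) and 2 (interaction at 4 h). AMH at 24 h gave 0 with scaling by total reads, 0 with voom and 0 without the high-oviduct libraries, which also gave 1 for doxorubicin at 24 h and 3 between times with doxorubicin. Without the high-oestrogen libraries the counts were 0 for doxorubicin and 0 for AMH at 24 h, 1 for adding AMH at 24 h, 1 for both agents at 24 h, 3 between times in the control, 4 with both agents, 5 with AMH and 1 for the interaction at 4 h. The filter at 5 FPKM gave 3 between times with doxorubicin and 1 with both agents. Apart from fewer members, genes or libraries entering a fit, the cause was not tested.

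With 1 library left out, counts ranged from 0 to 4 for doxorubicin at 24 h, 2 to 5 for AMH at 4 h, 0 to 1 for AMH at 24 h, 3 to 6 for both agents at 24 h, 5 to 6 between times in the control, 5 to 5 with doxorubicin, 2 to 3 with both agents, 3 to 9 with AMH and 0 to 2 for the change of the AMH difference, and were 0 to 0 elsewhere. Pairs of members that varied together numbered 10, 10, 12, 11 and 9 under the 5 alternatives. Ciart, at 12 to 144 reads per library, is the member that depth limits most.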
